A study of Mus musculus with 2 samples.

Results

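Solute carriers are membrane proteins that move small molecules such as amino acids, sugars, nucleosides, metals and ions across the surface membrane of a cell or across the membranes of its organelles. The solute carriers of kidney-resident macrophages were taken here as every protein-coding mouse gene whose symbol begins with Slc and a number and whose reads reached 5 CPM (counts of the gene scaled to a fixed total of reads on genes) in at least 1 of the 2 libraries. Of 371 such genes in the deposited table, 225 reached that level, and 19 of these were left out by the rule, 12 of them as genes of the kidney tubule. The remaining 206 genes, from 45 families, are the members described below, among 10105 protein-coding genes that reached the same level. The members were thus chosen by their CPM in these same libraries, and their levels are given as a description.

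The study compared 2 populations of resident macrophages sorted from the kidneys of adult wild-type C57BL/6 mice aged 8 weeks, R2a, which carries the integrin CD11c, and R2b, which does not. The mice were perfused, the kidneys were digested into single cells with collagenase and DNase, and antibody-stained macrophages were collected on a cell sorter. RNA from 6 to 8 mice was pooled into 1 library per population, so the spread between animals was not measured, no test is possible and no p-value is given. Each ratio below is R2a over R2b, with a 95% exact interval that covers the counting error of the reads only. A pooled library gives an average over sorted cells, so fewer cells of a type and less RNA per cell cannot be told apart.

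Reads on genes came to 11811923 in R2a and 23915896 in R2b, 2.02 times as many. All 10 macrophage markers were found, with a summed level of 23949 CPM in R2a and 26795 CPM in R2b, and the gene of the sort marker, Itgax, stood at 367 and 48.9 CPM. All 16 proximal tubule markers were found too, summing to 3793 and 3904 CPM. All 6 markers of the loop and distal nephron were also found, at 963 and 1111 CPM. RNA of kidney tubules was therefore measured in both libraries, and the label of macrophage solute carriers covers genes that tubule cells also express. Markers of other cells summed to less: fibroblasts 12.1 and 22.3 CPM with 3 of 5 called lower in R2a, and T and NK cells 1.73 and 3.31 with 1 of 5 called lower. Neutrophil markers summed to 60.6 and 60.2 CPM, nearly all of it Csf3r, and dendritic cell markers to 54.2 and 34.9 with 1 of 6, Xcr1, called higher. Klrb1c and Retnlg were at 0 in R2a. The part of these cells in the members' ratios was not tested.

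In macrophages, solute carriers supply amino acids and glucose, load and unload the lysosomes in which engulfed cells are broken down, and handle iron, zinc and copper. In the kidney, many families are known best from the tubule, where they take back filtered nutrients and salts. Most carriers of the Slc25 family sit in the inner mitochondrial membrane, and most Slc35 carriers bring nucleotide sugars into the Golgi apparatus and endoplasmic reticulum. Slc3a2 is not a pore of its own but the heavy chain that brings amino acid carriers of the Slc7 family to the surface. Of the members, 4 are not transporters and only share the symbol: Slc9a3r1, Slc9a3r2, Slc4a1ap and Slc7a6os. For 28 members the best known site is a nephron cell, 26 of them the proximal tubule and 2, Slc26a4 and Slc4a9, the intercalated cell. That list was drawn up after the values were seen. It may leave out members that nephron cells also express, and Slc15a2, for example, is not on it.

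Promoter windows are shown for 4 members because results below turn on them: Slc29a3 as the most abundant carrier of lysosomes, Slc15a4 as a lysosomal peptide carrier with a higher level in R2a, and Slc44a1 and Slc44a2 as relatives whose ratios lay on opposite sides of 1. Each is a RefSeq window of GRCm38.p6, printed 5′ to 3′ on the strand of the gene. It runs from 250 bases before a RefSeq start site to 50 after it. For Slc15a4 that site lies inside the gene body of the GENCODE M21 annotation, which spans 127595664 to 127632897. Slc29a3 lies on the minus strand at chr10:60752733-60753032, Slc15a4 on the minus strand at chr5:127617343-127617642, Slc44a1 on the plus strand at chr4:53440163-53440462 and Slc44a2 on the plus strand at chr9:21320469-21320768. RefSeq lists 2 windows each for Slc44a1 and Slc44a2, and the first is printed. Capitals mark the letters GGGCGG, the core of the GC box bound by Sp1, or their reverse complement CCGCCC.
Slc29a3: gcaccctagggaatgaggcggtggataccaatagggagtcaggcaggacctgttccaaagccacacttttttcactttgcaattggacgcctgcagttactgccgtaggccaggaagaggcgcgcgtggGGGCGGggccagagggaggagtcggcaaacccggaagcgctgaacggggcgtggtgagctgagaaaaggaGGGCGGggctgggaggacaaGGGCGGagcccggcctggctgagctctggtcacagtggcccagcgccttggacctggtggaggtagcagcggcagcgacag
Slc15a4: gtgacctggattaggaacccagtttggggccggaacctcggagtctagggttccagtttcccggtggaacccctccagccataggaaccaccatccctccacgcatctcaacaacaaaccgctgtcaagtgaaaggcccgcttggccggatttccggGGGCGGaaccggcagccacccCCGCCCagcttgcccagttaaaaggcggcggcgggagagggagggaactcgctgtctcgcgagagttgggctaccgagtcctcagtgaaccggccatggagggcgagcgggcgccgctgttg
Slc44a1: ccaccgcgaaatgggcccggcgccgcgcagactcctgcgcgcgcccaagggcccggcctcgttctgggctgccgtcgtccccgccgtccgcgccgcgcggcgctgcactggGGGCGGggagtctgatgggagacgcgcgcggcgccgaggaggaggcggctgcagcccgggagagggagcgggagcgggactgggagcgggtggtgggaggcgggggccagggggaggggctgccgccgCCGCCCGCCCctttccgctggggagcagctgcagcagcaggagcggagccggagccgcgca
Slc44a2: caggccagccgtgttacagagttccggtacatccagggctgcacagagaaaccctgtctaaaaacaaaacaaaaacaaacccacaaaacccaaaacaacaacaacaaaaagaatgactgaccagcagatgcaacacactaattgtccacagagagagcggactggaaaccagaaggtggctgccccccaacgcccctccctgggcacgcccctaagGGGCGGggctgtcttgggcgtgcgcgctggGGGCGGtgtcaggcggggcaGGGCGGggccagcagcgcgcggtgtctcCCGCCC
The windows held 3 matches in Slc29a3, 2 in Slc15a4, 3 in Slc44a1, of which 2 overlap each other, and 4 in Slc44a2. None of the 4 held the E-box CACGTG, the PU.1 core GAGGAA or the TATA letters TATAAA on either strand.

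A RefSeq window was matched for 156 of the 206 members. GGGCGG was found on either strand in 97 of them, 62.2%, against 35.9% of the windows of 27025 genes. Those 27025 genes were not limited by level, and no share was computed for genes of like level. The gaps given here therefore cannot be read as traits of solute carriers. Among members that are not nephron transporters 94 of 136 windows held it, 69.1%, and among nephron transporters 3 of 20, 15%. The E-box stood in 20 member windows, 12.8%, against 7.24% of all genes, and in 3 of 12 windows of endosome and lysosome carriers. The PU.1 core stood in 22.4% of member windows against 28.3% of all genes, and TATAAA in 7.05% against 14.2%. No motif contains another, matches of different motifs may share end letters, and a match describes the sequence and not a bound site.

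Levels of different genes were compared as CPM per kilobase of merged exons. The median level of the members was 5.60 in R2a and 5.84 in R2b, and 50 members in R2a and 56 in R2b reached 10. The 10 most abundant members held 25.8% of the summed CPM of the members in R2a and 25.9% in R2b. Of the 12 highest in R2a, 11 were also among the 12 highest in R2b, so both populations had nearly the same leading solute carriers.

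The highest level was that of Slc25a5, the adenine nucleotide carrier that exchanges ADP for ATP across the inner mitochondrial membrane, at 100.2 CPM per kilobase in R2a and 99.8 in R2b. Slc29a3, a nucleoside carrier of lysosomes whose loss in humans causes a histiocyte disorder, followed with 71.1 and 59.4. Slc3a2, the heavy chain named above, stood at 43.5 and 52.7. These 3 genes were ahead of all other members in both libraries.
Slc15a3, a lysosomal carrier of histidine and small peptides, stood at 39.0 and 40.3 CPM per kilobase. Slc9a9, a sodium-proton exchanger of endosomes, stood at 33.2 in R2a and 44.4 in R2b. Slc9a3r1, a scaffold protein that binds exchangers and receptors, stood at 36.7 and 37.9. Endosomal and lysosomal carriers thus made up 3 of the 12 most abundant members.
Slc25a3, the mitochondrial phosphate carrier, stood at 34.1 and 36.3 CPM per kilobase, and Slc25a11, the oxoglutarate carrier, at 26.2 and 28.1. Slc39a1, a zinc importer of the surface membrane, stood at 29.1 and 34.1, and Slc43a2, a carrier of large neutral amino acids, at 28.1 and 34.1. Slc22a12, the urate carrier of the proximal tubule, stood at 22.8 and 25.9, and Slc38a10 at 20.6 and 23.3. Slc22a12 is the nephron transporter among the 12.
Exon lengths of the basic annotation, or of the longest transcript, each kept 10 of these 12 genes. Some counts rest on shared sequence: 19.8% of the 75-base stretches of Slc25a5, 26.1% of those of Slc15a3, 26.0% of those of Slc22a12 and 17.9% of those of Slc39a1 also occur in transcripts of another gene.

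**Figure D1:**
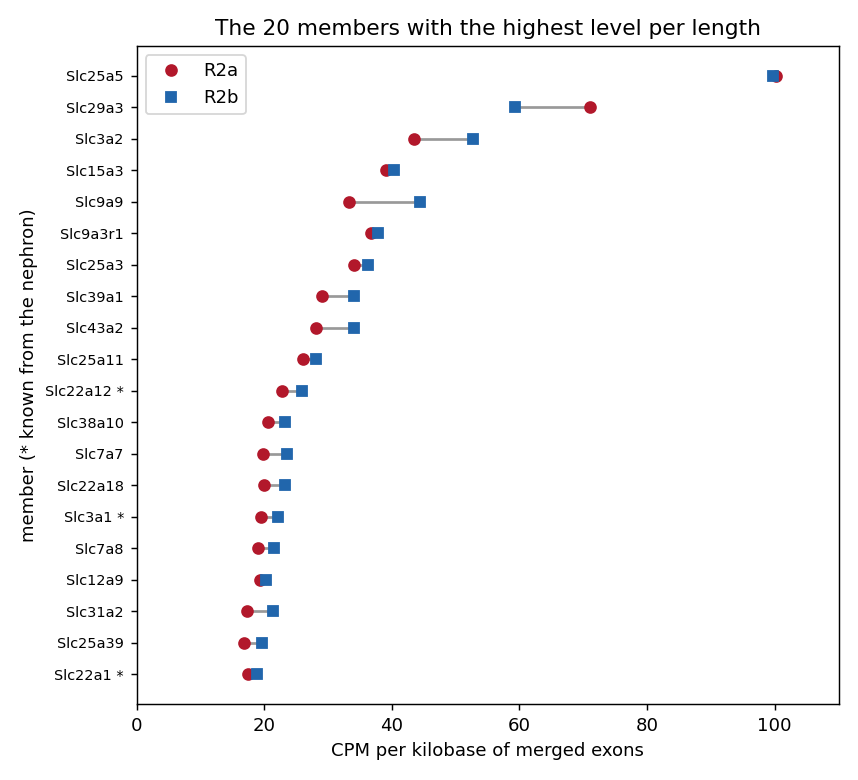
Level of the 20 most abundant members in R2a (circles) and R2b (squares), as CPM per kilobase of merged exons, 1 library per population, with an asterisk at members known from the nephron. Slc25a5 leads at 100.2 in R2a and 99.8 in R2b, and Slc29a3 follows with 71.1 and 59.4.

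The comparison of the populations asks which solute carriers differ between CD11c-positive and CD11c-negative resident macrophages. Few did by a wide margin: no member was called higher in R2a and 2 were called lower, Slc14a1 and Slc25a53, 0.971% of the 206. A member counted as called where CPM differed at least 2-fold after 0.5 CPM was added to both, the higher library held at least 1 CPM and the interval left out 1. By this rule 588 of 15603 genes over 1 CPM were called, 3.77%, with 1.93% higher and 1.84% lower in R2a. Among the 10105 protein-coding genes at 5 CPM or more it called 156, 1.54%, with 0.703% higher and 0.841% lower. The members' share is thus near the background for genes of like level and is no result about the members.

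The median log2 ratio of the members was -0.05 (quartiles -0.20 and 0.07), against -0.01 for all genes over 1 CPM and -0.01 for protein-coding genes at 5 CPM or more (quartiles -0.16 and 0.14). Of the members 171 differed by less than 1.25-fold, 12 stood at least that far above 1 and 23 at least that far below. At 1.5-fold, 4 were called higher in R2a and 8 lower, 5.83% of the members. The background at 1.5-fold was 5.56% of the 10105 genes, with 2.36% higher and 3.21% lower, and 11.4% of all genes over 1 CPM, with 5.57% higher and 5.79% lower. The members' share is again near that of genes of like level. The interval left out 1 for 28 members that were higher and 54 that were lower, 39.8%, against 41.2% of the 10105 genes. With scaling by total count the median of the members was 0.03 instead of -0.05, a shift of 0.08 that is common to all genes, so the sign of small ratios follows the scaling.

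**Figure D2:**
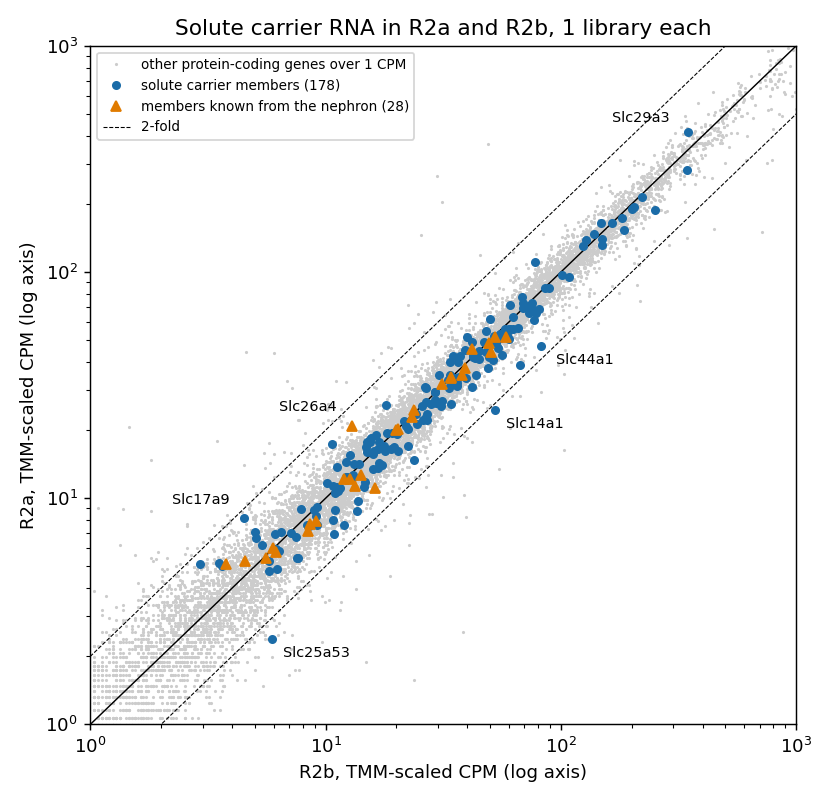
Level of every member in R2b (horizontal, CPM, log axis) against R2a (vertical, CPM, log axis), 1 library per population, with other protein-coding genes as grey dots, members known from the nephron as triangles, equal levels as a solid line and 2-fold differences as dashed lines. Most members lie along the diagonal, 171 of the 206 within 1.25-fold of it, and Slc14a1 and Slc25a53 are the 2 called lower in R2a.

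Slc14a1, the urea transporter of descending vasa recta and red blood cells, lies on chromosome 18. It had 298 reads in R2a and 1219 in R2b, or 24.5 and 52.4 CPM. Its level was 2.13 times lower in R2a (95% interval 1.88 to 2.43, log2 -1.08). Per kilobase it was member 89 in order of level in R2a and member 34 in R2b. No other gene overlaps it and none of its 75-base stretches occurs in another gene. The 6 endothelial markers, summed, were at 56.4 CPM in R2a and 42.3 in R2b, with none at 0. Their directions differed: Pecam1 had a log2 ratio of 0.97, and Plvap, with 35 and 128 reads, one of -0.83. The 6 erythroid markers summed to 12 and 10.3 CPM. Slc4a1 and Alas2 were at 0.96 and 0.63 on the log2 scale, while all 4 globin genes had fewer CPM in R2a, with Hba-a2 and Hbb-bt at 0 there. Of these Hbb-bs was called lower, with 0.906 and 3.57 CPM. The part of vessel or red blood cell RNA in the ratio of Slc14a1 was not tested.

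Slc25a53, a member of the mitochondrial carrier family with no assigned substrate, had 29 reads in R2a and 138 in R2b. That is 2.39 and 5.93 CPM, 2.48 times lower in R2a (95% interval 1.65 to 3.84). It became a member only through its R2b level, so by the rule its R2a level lay below 5 CPM. It overlaps Gm15038 and Zcchc18, whose strand is the opposite, and without a stated strand setting their reads cannot be told apart.

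At 1.5-fold, 6 further members were called lower. Slc44a1, a choline transporter of the surface and of mitochondria, had 572 and 1917 reads, or 47.1 and 82.4 CPM, 1.75 times lower in R2a (1.59 to 1.92). Slc20a1, a sodium-dependent phosphate importer, had 469 and 1560 reads, or 38.6 and 67.0 CPM, 1.73 times lower (1.56 to 1.93). Both counts are high enough that the interval stays above 1.5 times. Slc46a3, a lysosomal carrier, had 179 and 550 reads and was 1.60 times lower (1.35 to 1.91). Slc37a3, a carrier of the sugar phosphate exchanger family, had 92 and 278 reads, 1.58 times lower (1.24 to 2.02). Slc35e4, which has no assigned substrate, had 106 and 316 reads, 1.55 times lower (1.24 to 1.96). Slc25a33, a mitochondrial pyrimidine nucleotide carrier, had 84 and 253 reads, 1.57 times lower (1.22 to 2.04), and 11.4% of its 75-base stretches also occur in Gm13068. For these last 4 the lower bound falls below 1.5.

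At 1.5-fold, 4 members were called higher. Slc17a9, the vesicular nucleotide transporter that loads ATP into secretory vesicles and lysosomes, had 99 and 105 reads, or 8.16 and 4.51 CPM, 1.81-fold higher in R2a (1.36 to 2.40). It too is a member only through its level in R2a, with 8.38 and 4.39 CPM before scaling. Slc35a2, the UDP-galactose carrier of the Golgi apparatus, had 210 and 247 reads, or 17.3 and 10.6 CPM, 1.63-fold higher (1.35 to 1.97). Slc26a4, pendrin, the chloride-bicarbonate exchanger of intercalated cells, had 254 and 300 reads, or 20.9 and 12.9 CPM, 1.62-fold higher (1.37 to 1.92). Each interval for these 3 reaches below 1.5-fold. The intercalated cell marker Atp6v1b1 had a log2 ratio of 0.06, and the list of loop and distal nephron markers, with none at 0, summed to less in R2a, as given above. Slc4a9, the other member known from the intercalated cell, had 93 and 199 reads. The part of intercalated cell RNA in the ratio of Slc26a4 was not tested. Slc9a3r2, a scaffold and not a carrier, had 62 and 68 reads, 1.75-fold higher (1.22 to 2.5), and it became a member only through R2a as well.

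**Figure D3:**
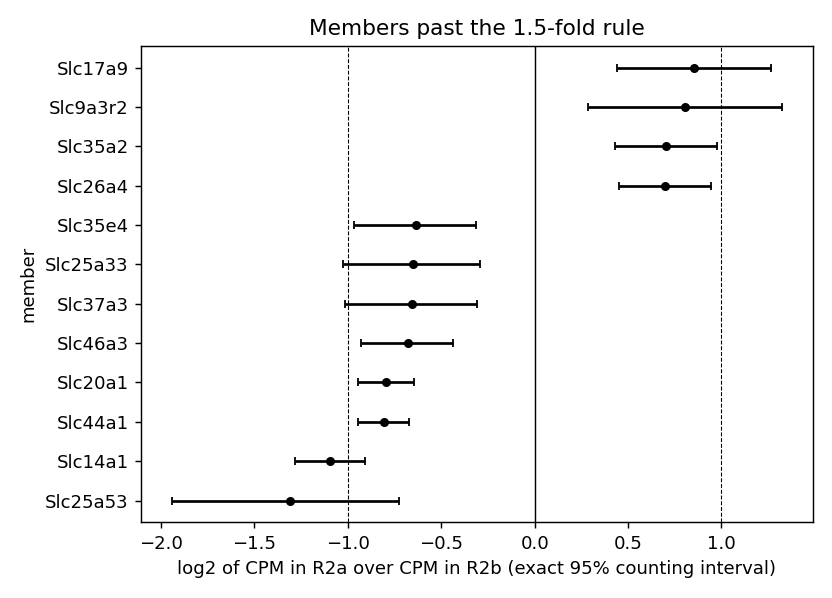
Log2 of the level in R2a over that in R2b (points, no value added) with its 95% exact counting interval (bars) for the 12 members past 1.5-fold, 1 library per population, with dashed lines at 2-fold. Slc25a53 and Slc14a1 lie farthest below 0, and Slc17a9 farthest above, at a ratio of 1.81.

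Amino acid and peptide carriers numbered 29, with 11 above and 18 below a log2 ratio of 0, a median of -0.13 and no call at 1.5-fold. Slc15a4, the lysosomal histidine and peptide carrier that endosomal Toll-like receptor signalling needs in mice, had 1349 and 1806 reads, or 111 and 77.6 CPM. It was 1.43-fold higher in R2a (1.33 to 1.54) and stood 12th in R2a but 28th in R2b in order of level per kilobase. Slc15a4 overlaps Glt1d1 and Gm43474, whose strand is the opposite, and 6.33% of its 75-base stretches also occur in Gm43474. Without a stated strand setting their reads cannot be told apart. The lysosomal relative Slc15a3 was at 214 and 222 CPM, with an interval of 0.922 to 1.01. Slc15a2, a peptide carrier of the surface membrane, was at 42.0 and 49.4 CPM, and the part of tubule RNA in it was not tested. The widest pair of the family was Slc15a4 and Slc15a2, with the ratio of Slc15a4 1.68 times that of Slc15a2 (1.48 to 1.91). Here and below, pairs of relatives are the widest of their family, picked from the values. Their intervals take no account of that choice.
Slc1a5, a carrier of glutamine and other neutral amino acids, was at 42.5 CPM in R2a and 34.8 in R2b, 1.22-fold higher (1.09 to 1.36). Slc38a7, a lysosomal glutamine carrier, was at 43.2 and 55.9 CPM, a ratio of 0.772 (0.696 to 0.855). Slc43a2 was at 282 and 342 CPM, a ratio of 0.824 (0.792 to 0.858). All 3 carry neutral amino acids, and their directions differed.
Slc3a2 itself was at 154 and 186 CPM, a ratio of 0.826 (0.782 to 0.872). Of its 6 known light chains listed, 5 were over 1 CPM and Slc7a10 had no read. Slc7a7, which exchanges cationic for neutral amino acids, and Slc7a8, a carrier of neutral amino acids, had ratios of 0.841 (0.773 to 0.915) and 0.883 (0.823 to 0.947). Slc7a5, the main importer of leucine and other large neutral amino acids, was at 18.5 and 15.5 CPM, 1.19-fold higher (1.00 to 1.41). In the Slc7 family the widest pair of members was Slc7a5 and Slc7a7, with the ratio of Slc7a5 1.41 times that of Slc7a7 (1.17 to 1.71). Scaling does not touch this comparison within the libraries. Slc7a11, the cystine importer, was below the level for membership with 23 against 14 reads, and was called higher in R2a (ratio 3.15, interval 1.55 to 6.62).

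Nucleoside, nucleotide sugar and sugar phosphate carriers numbered 28, with 14 above and 14 below 0 and a median of 0.00. At 1.5-fold 1 was called higher and 2 lower, all named above. That is 10.7% of the class, against 5.56% of the 10105 protein-coding genes at 5 CPM or more. Slc29a3 had 5032 and 8059 reads, or 415 and 346 CPM, the most reads of any member. It was 1.20-fold higher in R2a (1.16 to 1.24), a small ratio with a narrow interval. Slc28a2, a sodium-dependent importer of purine nucleosides, was at 25.8 and 18 CPM, 1.44-fold higher (1.24 to 1.67). Of its 75-base stretches 24.7% also occur in Gm14085. Slc29a1, the surface nucleoside carrier that works by equilibration, was at 52.0 and 51.7 CPM, with an interval of 0.911 to 1.11. Within the Slc35 family the widest pair was Slc35a2 and Slc35e4, the highest and the lowest, whose ratios differed by a factor of 2.53 (1.88 to 3.41).

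Mitochondrial carriers numbered 34, with 12 above and 22 below 0 and a median of -0.03. At 1.5-fold 2 were called lower, Slc25a53 and Slc25a33. That is 5.88%, near the 5.56% of the 10105 protein-coding genes at 5 CPM or more. Slc25a5 was at 165 and 164 CPM, an interval of 0.951 to 1.06. Slc25a1, the citrate carrier, was at 17.0 and 22.4 CPM, a ratio of 0.758 (0.642 to 0.892). Slc25a24, which exchanges ATP-magnesium for phosphate, was at 26.0 and 34.1 CPM, a ratio of 0.763 (0.668 to 0.870). Of the members of this family 30 differed by less than 1.25-fold.

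Ion, pH and phosphate carriers numbered 29, with 10 above and 19 below 0 and a median of -0.07. At 1.5-fold 2 were called higher, Slc17a9 and Slc26a4, and 1 lower, Slc20a1. That is 10.3% of the class, against 5.56% of the 10105 protein-coding genes at 5 CPM or more. Slc17a9 was a member only through its R2a level. Slc9a9 had 2292 and 5871 reads, or 189 and 252 CPM, 1.34 times lower in R2a (1.27 to 1.40). Slc9a7, a sodium-proton exchanger of the trans-Golgi network, was at 7.08 and 4.98 CPM, 1.42-fold higher (1.06 to 1.89), and became a member only through its R2a level. The ratio of Slc9a7 was 1.90 times that of Slc9a9 (1.41 to 2.54). Entry through R2a alone set the direction of Slc9a7, so this contrast is a description only. Slc20a2, the other phosphate importer of its family, was at 14.0 and 17.4 CPM, a ratio of 0.805 (0.669 to 0.965), and its ratio was 1.40 times that of Slc20a1 (1.13 to 1.72). Slc8a1, a sodium-calcium exchanger, was at 165 and 148 CPM, a ratio of 1.11 (1.05 to 1.18), and Slc4a7, a sodium-bicarbonate cotransporter, at 173 and 182 CPM, a ratio of 0.948 (0.899 to 0.999). Both are within 1.25-fold.

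Carriers of zinc, copper, iron, manganese and magnesium numbered 22, and 19 of them lay below 0, with a median of -0.14 and no call at 1.5-fold. Below 0 lay also 130 of all 206 members and 5250 of the 10105 protein-coding genes at 5 CPM or more. The interval left out 1 for 8 that were lower and 1 that was higher, 40.9% of the class. Of the 10105 genes it did so for 41.2%, with 19.4% higher and 21.8% lower. Under total-count scaling 15 of the 22 were below 0, and among the zinc importers of the Slc39 family 7 of 10 instead of 9 of 10. Slc31a1, the copper importer of the surface membrane, was at 37.5 and 49.1 CPM, a ratio of 0.763 (0.683 to 0.852), and Slc31a2, a related protein of endosomes and lysosomes, had a ratio of 0.808 (0.720 to 0.906). Slc39a1 was at 68.8 and 80.7 CPM, a ratio of 0.853 (0.785 to 0.926). Slc30a6, a zinc transporter subunit of the Golgi apparatus, was at 9.72 and 13.7 CPM, a ratio of 0.711 (0.571 to 0.881). Slc30a9 was the member of the class whose interval lay above 1, at 71.5 and 60.6 CPM (1.08 to 1.28). Slc11a2, the iron importer of endosomes, was at 56.1 and 57.6 CPM. Of 3 listed genes of the zinc response, Mt1 and Mtf1 were over 1 CPM and neither was called at 2-fold. Mt1, a metallothionein that binds zinc and copper, had 487 and 1428 reads, a ratio of 0.654 (0.589 to 0.725). Mtf1, the zinc-sensing transcription factor, had a ratio of 0.967 (0.857 to 1.09), and the metallothionein Mt2 had 0 and 2 reads.

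Vitamin, haem and cofactor carriers numbered 8, with a median of -0.23, the lowest of the classes, and 5 of them lay below 0. At 1.5-fold 1 was called lower, Slc46a3, 12.5% of the 8, against 5.56% of the 10105 genes of like level. Slc46a1, the proton-coupled folate carrier, was at 5.44 and 7.65 CPM, a ratio of 0.711 (0.528 to 0.948). Slc48a1, the haem carrier of lysosomes, was at 29.3 and 29.2 CPM, an interval of 0.882 to 1.14. Slc23a2, a vitamin C importer, was at 147 and 138 CPM, a ratio of 1.07 (1.01 to 1.14). Slc52a2 had a log2 ratio of -0.31. Slc48a1 and Slc23a2 were thus near 1, while in the class the interval left out 1 for 3 that were lower and 1 that was higher. That is 50% of the 8, against 41.2% of the 10105 protein-coding genes at 5 CPM or more.

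Sugar carriers numbered 14, with 3 above and 11 below 0, a median of -0.12 and no call at 1.5-fold. Slc2a1, the basal glucose importer GLUT1, was at 31.1 and 42.1 CPM, 1.35 times lower in R2a (1.20 to 1.53). Slc2a3, the high-affinity glucose importer, was at 44.2 and 47.9 CPM, an interval of 0.831 to 1.02. Slc2a4, the insulin-responsive importer, had 63 and 82 reads, a ratio of 1.47 (1.04 to 2.07), and became a member only through its R2a level. Of 16 glycolysis genes none was called at 2-fold or 1.5-fold, and their median log2 ratio was -0.11. They lay mostly below 0, 13 against 3 above. The interval left out 1 for 9 that were lower and 0 that were higher, 56.2%. Among the 10105 protein-coding genes at 5 CPM or more that share was 41.2%, with 19.4% higher and 21.8% lower. Monocarboxylate and dicarboxylate carriers numbered 12, with 7 above and 5 below 0 and a median of 0.01. Slc16a7, a lactate and pyruvate carrier, was at 194 and 206 CPM, a ratio of 0.942 (0.897 to 0.990), and Slc16a3, which exports lactate, was at 16.1 CPM in both.

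Lipid, choline and bile acid carriers numbered 10, 5 above and 5 below 0, with a median of -0.00. Within this class, the Slc44 family held the widest contrast between relatives. Slc44a2, a choline transporter-like protein, had 628 and 926 reads, or 51.7 and 39.8 CPM, 1.3-fold higher in R2a (1.17 to 1.44), while Slc44a1 was lower. The ratio of Slc44a2 was 2.27 times that of Slc44a1 (1.98 to 2.61). The windows shown above for both hold GGGCGG, and the second RefSeq window of Slc44a2 does not. Slc27a1 and Slc27a4, which import fatty acids, both had ratios near 1, and they differed from each other by a factor of 1.01.

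**Figure D4:**
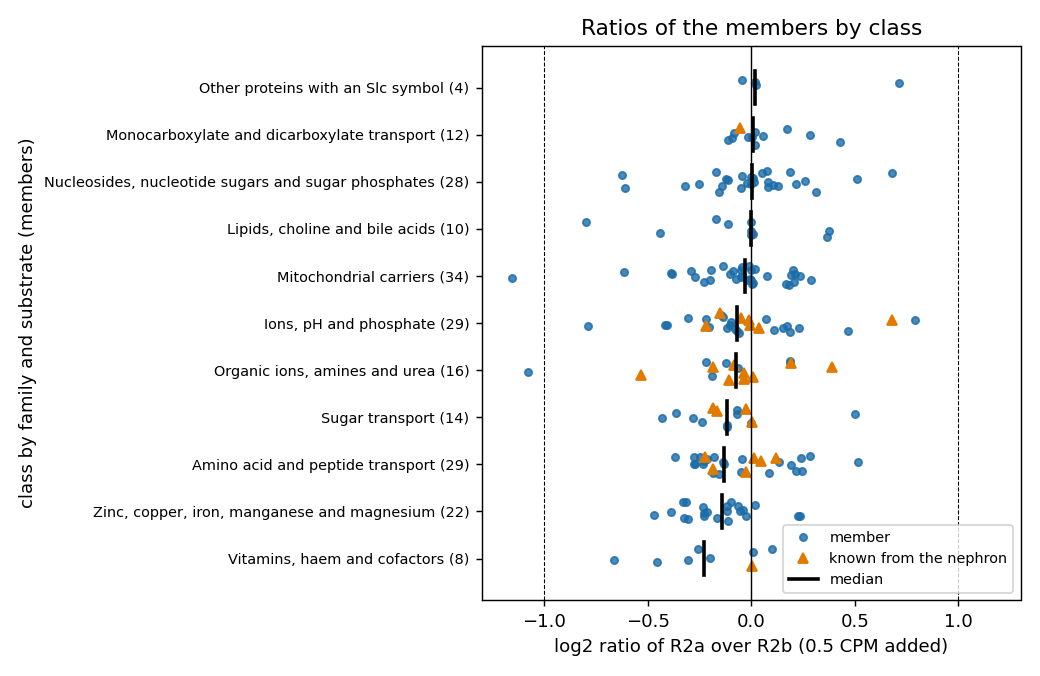
Log2 ratio of R2a over R2b for every member by functional class, 1 point per gene (triangles for members known from the nephron), with class medians as black bars, dashed lines at 2-fold and 1 library per population. Most points lie near 0, and 130 of the 206 lie below it, or 92 under total-count scaling. Class medians run from -0.23 for vitamin, haem and cofactor carriers to 0.02 for the 4 proteins that are not transporters.

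Organic ion, amine and urea carriers numbered 16, with 5 above and 11 below 0 and a median of -0.07, and Slc14a1 was the member called. At 2-fold that is 6.25% of the class, from 1 gene, against 1.54% of the 10105 protein-coding genes at 5 CPM or more. Slc22a2, an organic cation carrier of the proximal tubule, was at 11 and 16.2 CPM, 1.47 times lower in R2a (1.20 to 1.80). Slc47a1, which exports organic cations into urine, was at 51.4 and 52.7 CPM, an interval of 0.885 to 1.08. These are among the 28 nephron transporters, which together held 7.62% of the members' summed CPM in R2a and 7.48% in R2b.
Among the 28, none was called at 2-fold and 1, Slc26a4, at 1.5-fold, and the median log2 ratio was -0.03 (quartiles -0.15 and 0.01). At 1.5-fold that is 3.57%, against 5.56% of the 10105 protein-coding genes at 5 CPM or more. The 26 proximal tubule transporters summed to 604 CPM in R2a and 628 in R2b. The 16 proximal tubule markers, which are no members, had a median log2 ratio of -0.04 with 0 called and none at 0. The part of tubule RNA in the levels of these members was not tested.

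Across classes, 17 of 18 listed carriers of endosomes and lysosomes were members, and Slc2a6 missed the level for membership. Of the 17, 6 were above and 11 below 0, with a median of -0.07, and the interval left out 1 for 3 higher and 8 lower. Among the 10105 protein-coding genes at 5 CPM or more it did so for 19.4% higher and 21.8% lower. More reads narrow the interval, and those genes were not matched to the list by reads. The directions differed within the list, with Slc15a4 and Slc29a3 higher and Slc46a3, Slc9a9 and Slc38a7 lower in R2a. Slc17a9 was higher too, but it was a member only through its R2a level. Of 19 genes of the mTORC1 pathway, which senses amino acids at the lysosome, 1 was called higher, Rragb, with 28 and 11 reads. That is 5.26%, against 3.77% of all genes over 1 CPM, and the median of the 19 was -0.01. Of 11 genes of the amino acid stress response 8 were over 1 CPM, none was called and the median was -0.18. Of these 8, 2 lay above 0 and 6 below. Atf5, with 18 and 68 reads, had a ratio of 0.507 (0.284 to 0.863) and was called lower at 1.5-fold. Sesn2, with 221 and 609 reads, had a ratio of 0.696 (0.594 to 0.813). Asns, an asparagine synthetase of that response, was below 1 CPM, with 9 reads in R2a and 0 in R2b. Of 10 glutathione genes none was called and the median was -0.02. Of 17 accessory and neighbouring transport genes, 6 lay above 0 and 11 below. At 2-fold 1 was called lower, 5.88%, against 3.77% of all genes over 1 CPM. It was Slco4a1, an organic anion carrier outside the Slc symbol rule, with 20 and 163 reads, a ratio of 0.235 (0.140 to 0.375). Sv2a, with 39 and 148 reads, had a ratio of 0.505 (0.346 to 0.723) and was called lower at 1.5-fold.

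Just inside the level for membership lay Slc16a5 with 61 and 84 reads (5.16 and 3.51 CPM before scaling), Slc9a3r2 with 62 and 68 (5.25 and 2.84) and Slc22a19 with 62 and 88 (5.25 and 3.68). Just outside lay Slc18b1 with 51 and 119 reads (4.32 and 4.98 CPM), Slc16a11 with 57 and 95 (4.83 and 3.97) and Slc2a6 with 50 and 115 (4.23 and 4.81). Of the 206 members 195 reached the level in both libraries, 8 in R2a only and 3 in R2b only. These 11 had to differ in the direction of the library that admitted them.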

How the data were processed

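RNA of sorted kidney macrophages was measured in 2 libraries, R2a and R2b, 1 per population, each from pooled mice. The values deposited by the authors are raw counts. Per the labels' protocols, libraries were depleted of ribosomal RNA and sequenced from both ends for 75 bases. Base calls came from bcl2fastq 2.18.0.12, alignment to GRCm38 from STAR 2.5.3 and counting from HTSeq 0.9.1, per the submitters' processing notes. These notes also name DESeq2, with no output used here. For the annotation release and the strand setting, nothing is given in the sources used here. The counter's summary rows stayed out of library sizes: in R2a 41.2% and in R2b 38.9% of reads lay outside annotated exons.

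Of 48795 gene rows 48435 matched GENCODE M21, which gave names, types and exon lengths. Membership used CPM of the counts as deposited. All other CPM used TMM library sizes (edgeR 4.0.16, R 4.3.3). With 1 library per population no model was fitted. Ratios have Clopper-Pearson 95% intervals from the split of reads (scipy 1.17.1), and ratios between relatives have conditional odds ratio intervals, given for a few of the 1113 pairs within 33 families. Only the widest pair of each family was given an interval, which takes no account of that choice. Log2 ratios add 0.5 CPM. The call rule was tested on simulated data with known changes.

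Names were drawn by a rule from the members called, the 12 most abundant per length and 3 on either side of the membership level. In each class the rule adds up to 3 with the widest ratio and 2 most abundant, and up to 3 per partner list. Not every gene that the rule picks is described, and no gene of the glycolysis and glutathione lists is named. Other genes were named after their values were seen, and the family pairs, the printed promoters, the motifs and the nephron list were chosen then too. Members and lists were chosen with earlier results of these data known. Other scalings, added values, folds, membership levels and gene lengths, and leaving out members that overlap another gene, were tried. The results of 2 of the 12 marker lists are not reported here.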

Additional observations from a re-analysis of the deposited data

Results flagged for a closer look

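Some signal lay outside the gene counts compared. The share of reads outside annotated exons was 41.2% for R2a and 38.9% for R2b. Reads that fell on several genes were 2.42% and 2.51%, and those with several alignments 8.5% and 8.33%.

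A few Slc symbols that are not protein-coding had more reads than the limit of 3 counts that 0 reads would allow. The pseudogene Slc2a4rg-ps had 45 reads in R2a against 68 in R2b, and Slc22a13b-ps had 8 against 4. The antisense gene Slc13a2os had 7 reads in each library, and Slc6a19os had 11 in R2b. Reads of an antisense gene and of its partner cannot be told apart here.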

How the results depend on the processing

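The count of 2 members called, both lower in R2a, was 1 (1 lower) with 2 CPM added in place of 0.5, 12 (4 higher and 8 lower) at 1.5-fold and 0 at 4-fold. It was 1 (1 lower) among members overlapping no other gene, with 5 CPM asked of both libraries and with membership at 10 CPM. With membership at 3 CPM, 1 gene was called higher, for 3 in all. Both members called lower stayed below 0 under every scaling and added value tried. The median of all members (-0.05, and 0.03 under total-count scaling), the medians of 4 classes (ions, lipids, mitochondrial and monocarboxylate carriers) and the ratios of Slc12a9, Slc15a3 and Slc9a3r1, none of them called, changed sign in at least 1 alternative. Of 385 values for the 55 genes that the naming rule picks, 377 moved by less than their counting interval and 8 by more. Each of these 8 moved under total-count scaling. No paired analysis was possible because each population had 1 library. Animal spread and repeat libraries were not measured. The median number of reads per member was 297.5 in R2a and 618.5 in R2b. Across members the median interval spanned 0.207 on the log2 scale to either side.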

Other observations

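Of the 146 Slc symbols below the level for membership, 40 had no read in either library and 55 were over 1 CPM in at least 1. By the 2-fold rule, 2 of these 55 were called higher in R2a and 3 lower, each on few reads. Among all genes over 1 CPM the rule called 3.77%, with 1.93% higher and 1.84% lower. The share among genes of such low level was not computed, so the count is no result about these genes. Slc14a2, the urea transporter of the medullary tubule and the neighbour of Slc14a1 on chromosome 18, had 46 against 9 reads. Its ratio was 9.80 (4.74 to 22.8), in the opposite direction to Slc14a1. Of the 6 loop and distal nephron markers, 4 had log2 ratios below 0, the lowest Slc12a3 at -0.59, and 2 above, Aqp2 at 0.26 and Atp6v1b1 at 0.06. Their part in the ratio of Slc14a2 was not tested. Slc7a11 was the other gene called higher. Called lower were Slc12a5, a potassium-chloride cotransporter, with 7 and 46 reads, Slc24a1, a sodium-calcium-potassium exchanger, with 5 and 39, and Slc34a2, a phosphate importer, with 6 and 36. These genes were picked out after their values were seen.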
